A study of Mus musculus with 20 samples.

Results

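The 37 genes of the mouse mitochondrial genome were described here in sorted sensory neurons from lumbar and sacral dorsal root ganglia (DRG). They were chosen by position alone, as every gene that the annotation places on the mitochondrial chromosome (chrM) of mouse build NCBIM37 (mm9), and all 37 were present among the 37620 genes of the expression table. They comprised 13 mRNAs, 2 rRNAs and 22 tRNAs, and each of them had a value in all 20 libraries.

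The study compared Trpv1 neurons, the capsaicin-sensitive afferents, of ganglia L4-5 and L6-S1, which serve different regions of the body. Every donor was homozygous for Trpv1tm2Bbm, a reporter allele that drives PLAP and nuclear LacZ from the Trpv1 locus, so all 4 groups of sex and level shared it, and none of the 20 libraries came from wild-type donors. There were 5 male and 5 female donors of 6 to 8 weeks, each giving 1 lumbar and 1 sacral library, and the brightest cells for a fluorescent LacZ substrate were sorted. Each donor label carried 2 animal numbers, and whether animals were pooled was not stated. The reporter marks cells by the activity of the Trpv1 locus, so each library holds a sorted population rather than a single cell type.

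Mitochondrial DNA is a compact circle that is transcribed from both strands into long precursor RNAs, from which the tRNAs are cut out so that the rRNAs and mRNAs between them are released. The rRNAs and tRNAs serve the mitochondrial ribosome, which translates the mRNAs into core subunits of respiratory complexes I, III and IV and of the ATP synthase, complex V. All other subunits, complex II and the proteins of the mitochondrial ribosome are encoded in the nucleus. Sensory neurons send axons over long distances and depend on respiration for ion pumping and transport.

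Markers of other cells differed between the levels, and these values stand beside every lumbar to sacral result below. Of 10 glial markers 9 were upregulated in lumbar libraries (all but Pmp22), and their summed level was 2038 to 4036 RPKM (reads per kilobase, corrected for depth) in lumbar against 1256 to 2117 in sacral libraries, higher in lumbar in 10 of 10 donors. Of 10 neuronal markers 8 were upregulated in sacral libraries (all but Calca and Tac1), with sums of 2778 to 4221 RPKM in lumbar and 3848 to 4890 in sacral libraries. Over all tested genes 15.3% were called higher in lumbar and 30.3% higher in sacral libraries. Endothelial markers (5 of 5 upregulated in lumbar, sums of 7.36 to 50.6 against 5.93 to 26.8 RPKM) and red cell markers (4 of 5, sums of 1.14 to 16.8 against 0.523 to 6.95 RPKM) were far lower. Of 7 macrophage and leukocyte markers 3 could be tested and 1 was upregulated in lumbar, with sums of 2.84 to 13.4 against 1.84 to 4.52 RPKM and no value for Cx3cr1 and C1qa in 7 libraries each. The part of these cells in the mitochondrial results was not tested directly, and in such bulk samples fewer cells of a type and less RNA per cell cannot be told apart.

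The tRNA genes that carried the contrast between neighbours are shown first, read from the build's chrM in the direction of each gene, with the anticodon in capitals. The first 3 flank the rRNAs on the plus strand and were among the 4 most abundant tRNAs, and all 3 were higher in lumbar libraries.
mt-Tf (chrM:1-68, plus strand, tRNA for phenylalanine): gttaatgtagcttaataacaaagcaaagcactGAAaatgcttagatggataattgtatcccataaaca
mt-Tv (chrM:1025-1093, plus strand, valine): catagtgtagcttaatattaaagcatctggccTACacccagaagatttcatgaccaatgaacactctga
mt-Tl1 (chrM:2676-2750, plus strand, leucine): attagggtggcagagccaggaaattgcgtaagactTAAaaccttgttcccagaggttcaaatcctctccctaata
The next 5 lie side by side between mt-Nd2 and mt-Co1. The first 4 of them did not pass the test between the levels, and the 5th did; they were chosen for display after their values were seen.
mt-Tw (chrM:4950-5016, plus strand, tryptophan): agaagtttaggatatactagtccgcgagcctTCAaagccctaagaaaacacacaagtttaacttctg
mt-Ta (chrM:5018-5086, minus strand, alanine): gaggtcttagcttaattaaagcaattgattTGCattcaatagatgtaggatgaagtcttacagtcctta
mt-Tn (chrM:5089-5159, minus strand, asparagine): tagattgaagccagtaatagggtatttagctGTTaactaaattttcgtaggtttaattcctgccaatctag
mt-Tc (chrM:5192-5257, minus strand, cysteine): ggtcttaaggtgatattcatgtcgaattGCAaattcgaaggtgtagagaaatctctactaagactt
mt-Ty (chrM:5260-5326, minus strand, tyrosine): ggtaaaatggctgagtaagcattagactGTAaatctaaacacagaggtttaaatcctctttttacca

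In the lumbar libraries more of all reads on genes came from mitochondrial genes. Their share was 37.2%, 55.4% and 60.4% (lowest, median and highest of 10 libraries) in lumbar and 21.5%, 29.5% and 41.6% in sacral libraries, so the ranges overlapped across donors. Within each donor the lumbar share was the higher one, in 10 of 10, by 21.8 ± 7.58 percentage points (SD, n = 10 donors). The smallest difference was 9.43 points in female donor 2 and the largest 30.3 points in male donor 5. Counting error was small beside this, since Wilson 95% intervals of a single share extended at most 0.0147 points to either side.

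**Figure D1:**
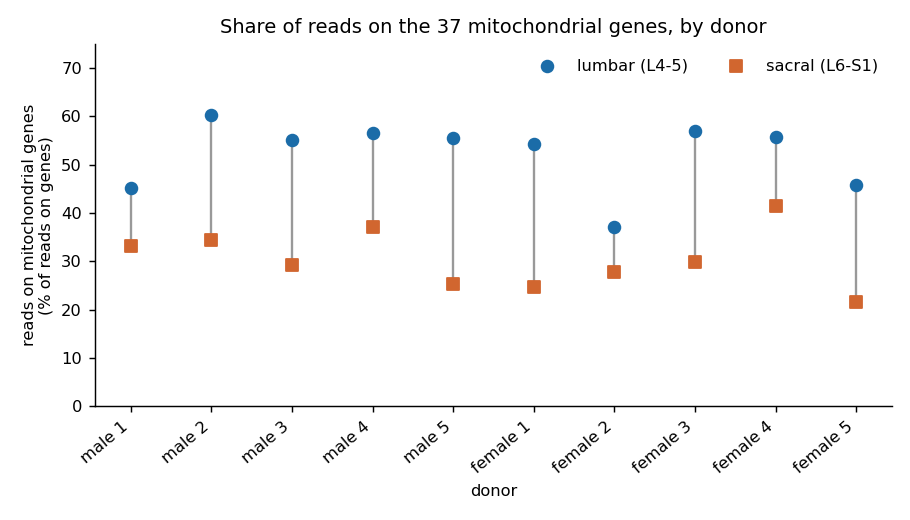
Share of reads on the 37 mitochondrial genes (y axis, % of reads on genes) in each donor (x axis), for the lumbar library (circle) and the sacral library (square), joined by a line. In all 10 donors the lumbar share is the higher one, from 9.43 to 30.3 percentage points apart.

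The rRNAs made up most of these reads. They took 46.4 ± 6.33% of reads on genes in lumbar and 27.0 ± 5.42% in sacral libraries (mean ± SD, n = 10). The 13 mRNAs took 5.69 ± 0.932% and 3.34 ± 0.719%, and the 22 tRNAs 0.187 ± 0.0367% and 0.108 ± 0.0224%. Among the mRNAs, those for complex IV held 2.53% of reads in lumbar and 1.40% in sacral libraries and those for complex I held 2.27% and 1.42%. The single complex III mRNA held 0.842% and 0.492%, and the complex V mRNAs 0.0493% and 0.0286%.

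By RNA class the makeup of the mitochondrial reads was much the same at both levels. Of all mitochondrial reads, rRNAs were 88.8 ± 0.803% in lumbar and 88.7 ± 0.563% in sacral libraries, mRNAs 10.9 ± 0.797% and 10.9 ± 0.562%, and tRNAs 0.356 ± 0.0314% and 0.355 ± 0.0163%. Each of these shares differed between the levels by less than its SD over libraries. The tRNA share rested mostly on mt-Tv and mt-Tf, with medians of 63219.5 and 22836.5 reads in lumbar libraries, where mt-Tl1 had 5358.5. It therefore says little about the other tRNAs. Of the mRNA reads mt-Co1, the only mRNA for which this share was computed, held 43.5 ± 1.74% in lumbar and 40.8 ± 2.19% in sacral libraries. Its lumbar share was higher in 9 of 10 donors. Reads outside the mitochondrial genome averaged 26731213 in lumbar and 38588136 in sacral libraries, so the lumbar values of nuclear genes rested on fewer reads.

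All 37 genes passed the filter on low values, a mean log2 RPKM above -1 in at least 1 group. Gene by gene, 29 of the 37 were upregulated in lumbar libraries and 0 in sacral libraries (limma with donor as block, Benjamini-Hochberg adjusted p of at most 0.05 over 16304 genes). Of all tested genes 15.3% were called higher in lumbar and 30.3% higher in sacral libraries, 45.6% in all. Both the call and a log2 fold change above 1 were reached by 14 of the 37 genes, against 5.99% of all genes. By unadjusted p 31 of the 37 passed the same threshold, against 8621 of 16304 genes over the whole table. Voom on the worked-back reads called 30 of the 37 higher in lumbar and 0 higher in sacral (21.3% and 21.7% of all genes). The median log2 fold change (lumbar minus sacral) was 0.88 over the 37 genes and -0.11 over all tested genes. In 22 of the 37 genes the lumbar library was higher in all 10 donors, against 6.15% of all genes. None of the 37 separated the levels without overlap, which 0.35% of all genes did in this direction.

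By RNA class, all 13 mRNAs (median log2 fold change 1.08), both rRNAs (1.13) and 14 of the 22 tRNAs (median 0.65) were called higher in lumbar. By complex the counts were 7 of 7 for complex I (median 1.01), 1 of 1 for complex III (1.11), 3 of 3 for complex IV (1.08) and 2 of 2 for complex V (1.13). Every mRNA and rRNA was higher in lumbar in all 10 donors, whereas this held for 7 of the 22 tRNAs. The median of each class was taken over its own genes, and no test between classes was run.

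**Figure D2:**
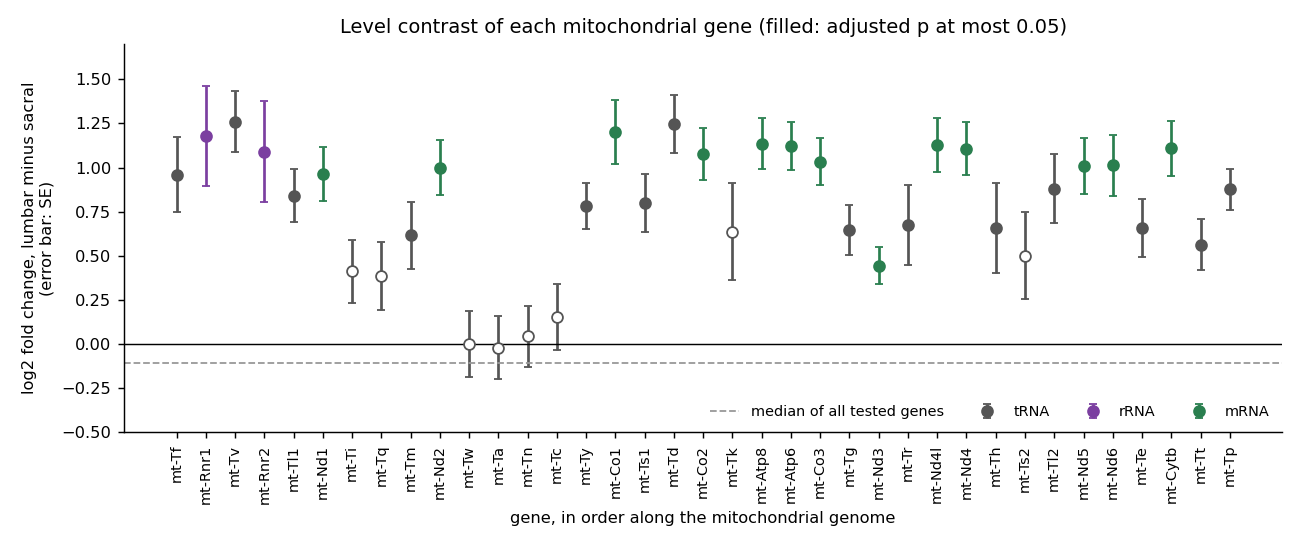
Log2 fold change (y axis, lumbar minus sacral, error bar SE from limma) of each of the 37 genes in their order along the mitochondrial genome (x axis), with filled points for an adjusted p of at most 0.05 and the median of all tested genes dashed. The mRNAs and rRNAs lie between 0.44 and 1.20, and mt-Tw, mt-Ta, mt-Tn and mt-Tc lie near 0.

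The rRNAs were the most abundant genes of the table, with mt-Rnr2 first and mt-Rnr1 second by reads in every library. mt-Rnr2 (chrM:1094-2675, plus strand), the rRNA of the large mitochondrial subunit, had 17.14, 17.97 and 18.27 log2 RPKM (lowest, median and highest) in lumbar and 16.32, 16.67 and 17.43 in sacral libraries. It was 2.13-fold higher in lumbar, with a log2 fold change of 1.09 ± 0.28 (SE) and an adjusted p of 0.00384. mt-Rnr1 (chrM:70-1024, plus strand), the rRNA of the small subunit, had 16.88, 17.75 and 18.11 in lumbar and 15.68, 16.49 and 17.12 log2 RPKM in sacral libraries, and its log2 fold change was 1.18 ± 0.28 (adjusted p = 0.00205). The ranges of the levels overlapped narrowly in both genes, while the lumbar library was the higher one in every donor, by at least 0.59 for mt-Rnr2 (male donor 1) and 0.54 for mt-Rnr1 (female donor 2). These calls had the highest adjusted p among the mRNAs and rRNAs and changed with the fit. Their donor differences were not more spread, with an SD of 0.37 for mt-Rnr2 and 0.48 for mt-Rnr1 against 0.50 for mt-Co1. Without the mean-variance trend in limma all 15 mRNAs and rRNAs kept their calls. Without the filter on low values the adjusted p was 0.404 for mt-Rnr2 and 0.316 for mt-Rnr1, and under quantile normalization both were fixed at a difference of 0.00 because they held the top ranks in every library.

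Complex I, which takes electrons from NADH, has 7 subunits encoded here. mt-Nd1 (chrM:2751-3707) was the most abundant, with 12.65, 13.35 and 13.64 log2 RPKM in lumbar and 11.85, 12.34 and 12.92 in sacral libraries, a 1.95-fold difference (log2 fold change 0.97 ± 0.15, adjusted p = 5.17e-05). mt-Nd4 (chrM:10167-11544), of the proton-pumping membrane arm, had 11.66, 12.33 and 12.79 in lumbar and 10.66, 11.17 and 11.77 log2 RPKM in sacral libraries (1.11 ± 0.15, adjusted p = 1.19e-05). Both genes had sacral medians below the lowest lumbar library, and the ranges met only at their ends. mt-Nd5 (chrM:11742-13565), also of the membrane arm, had 11.32, 12.03 and 12.45 in lumbar against 10.39, 10.99 and 11.57 log2 RPKM in sacral libraries, 2.01-fold higher (1.01 ± 0.16). mt-Nd2 (chrM:3914-4951), another membrane subunit, had 10.93, 11.58 and 11.99 against 9.96, 10.48 and 11.14 log2 RPKM (0.999 ± 0.15). The adjusted p was 4.91e-05 for mt-Nd5 and 4.16e-05 for mt-Nd2, and female donor 1 had the largest difference in both.

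The remaining complex I mRNAs differed in strand, length and level. mt-Nd6 (chrM:13552-14070), the only mRNA on the minus strand, had 10.20, 11.04 and 11.68 in lumbar and 9.16, 10.02 and 10.89 log2 RPKM in sacral libraries, 2.02-fold higher in lumbar (1.01 ± 0.17, adjusted p = 0.00011). The library kit kept no strand, so reads of mt-Nd6 could not be told from antisense reads of the plus-strand precursor. mt-Nd4l (chrM:9877-10173), whose end overlaps mt-Nd4 by 7 bases, had 7.47, 8.11 and 8.55 against 6.42, 6.93 and 7.71 log2 RPKM (1.13 ± 0.15, adjusted p = 1.17e-05). mt-Nd3 (chrM:9459-9806) stood lowest among the mRNAs in level and in fold. It had 6.18, 6.60 and 6.85 log2 RPKM in lumbar and 5.76, 5.96 and 6.61 in sacral libraries, a 1.36-fold difference (0.44 ± 0.11, adjusted p = 0.00189). Its donor differences ran from 0.12 in female donor 4 to 0.79 in female donor 1, all in the lumbar direction. When reads were scaled to all reads on genes its difference was 0.12 and no longer called (adjusted p = 0.271).

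Complex III passes electrons to cytochrome c, and mt-Cytb (chrM:14145-15288), cytochrome b, is its only mitochondrially encoded subunit. It had 12.54, 13.22 and 13.58 log2 RPKM in lumbar and 11.60, 12.04 and 12.66 in sacral libraries, 2.16-fold higher in lumbar (1.11 ± 0.16, adjusted p = 1.8e-05). Only the ends of the ranges overlapped, with the smallest donor difference 0.49 in male donor 1.

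Complex IV, cytochrome c oxidase, has its catalytic core encoded by 3 of these genes. mt-Co1 (chrM:5328-6872), which carries the haem and copper centre that reduces oxygen, was the most abundant mRNA, with 13.47, 14.32 and 14.78 log2 RPKM in lumbar and 12.50, 12.98 and 13.82 in sacral libraries. Its 2.30-fold difference (1.20 ± 0.18, adjusted p = 3.75e-05) was the largest log2 fold change among the 13 mRNAs. mt-Co2 (chrM:7013-7696), which receives electrons from cytochrome c, had 9.03, 9.60 and 9.87 in lumbar and 7.86, 8.37 and 9.28 log2 RPKM in sacral libraries (1.08 ± 0.15, adjusted p = 1.27e-05). mt-Co3 (chrM:8607-9390), the third core subunit, had 7.23, 7.86 and 8.27 against 6.47, 6.74 and 7.82 log2 RPKM (1.03 ± 0.13, adjusted p = 6.76e-06). In all 3 genes female donor 4 had the smallest difference, 0.54 for mt-Co1, 0.24 for mt-Co2 and 0.04 for mt-Co3.

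Complex V makes ATP from the proton gradient, and the mitochondrial genome encodes its membrane subunits mt-Atp8 (chrM:7766-7969) and mt-Atp6 (chrM:7927-8607), which overlap by 43 bases. mt-Atp8 had 9.36, 9.89 and 10.18 log2 RPKM in lumbar and 8.18, 8.66 and 9.53 in sacral libraries, 2.20-fold higher in lumbar (1.14 ± 0.14, adjusted p = 5.92e-06). mt-Atp6 had 8.75, 9.33 and 9.63 against 7.62, 8.12 and 8.98 log2 RPKM (1.12 ± 0.14, adjusted p = 4.74e-06), the lowest adjusted p of the 37 genes. The sacral library of female donor 4 was the one that reached into the lumbar range in both.

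**Figure D3:**
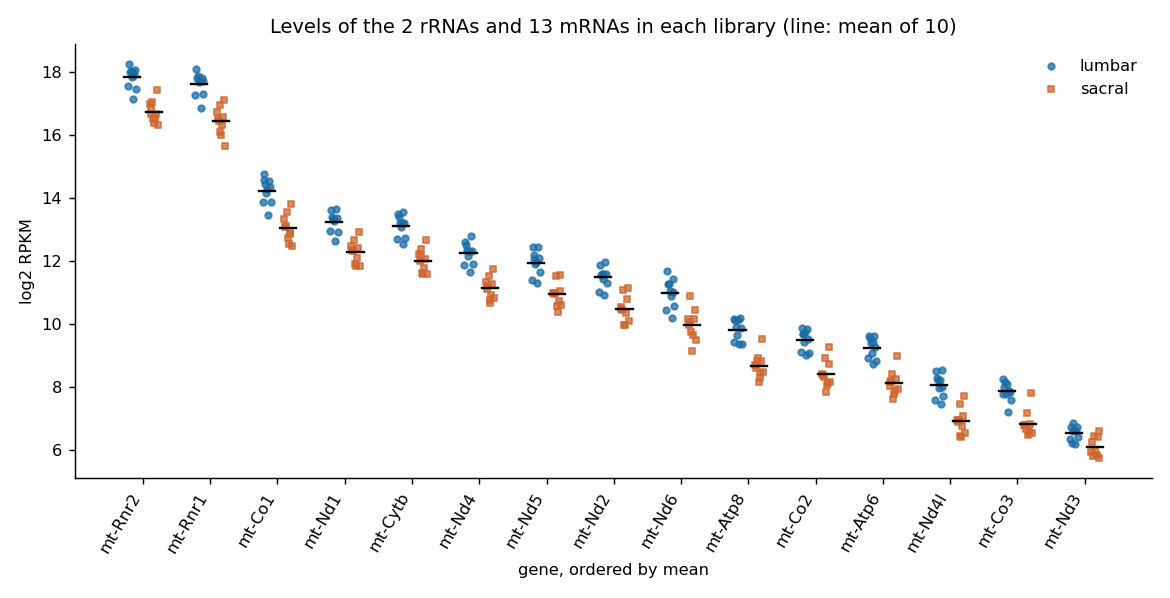
Level (y axis, log2 RPKM) of the 2 rRNAs and 13 mRNAs, ordered by mean (x axis), with 1 point per library, circles for lumbar, squares for sacral and a line at the mean of 10. The lumbar mean is the higher one in all 15 genes, and the ranges of the levels overlap in each.

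Per kilobase, levels fell over a wide span from the rRNAs (means over 20 libraries of 17.04 and 17.29 log2 RPKM) to mt-Nd3 (6.31). Neighbours in this order were often within their spread, such as mt-Nd1 and mt-Cytb, whose lumbar medians were 13.35 and 13.22 log2 RPKM.

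Among the tRNAs the difference depended on the gene. The 4 most abundant were all upregulated in lumbar libraries. mt-Tv, for valine, had 13.60, 14.43 and 15.05 log2 RPKM in lumbar and 12.66, 13.12 and 13.71 in sacral libraries (1.26 ± 0.17, adjusted p = 1.23e-05), the largest log2 fold change of all 37 genes. mt-Tf, for phenylalanine, had 11.74, 12.95 and 13.59 against 10.48, 12.01 and 12.49 log2 RPKM (0.96 ± 0.21, adjusted p = 0.00108), but was higher in lumbar in only 8 of 10 donors. mt-Tl1, for leucine, had 9.95, 10.67 and 11.22 against 9.19, 9.80 and 10.60 log2 RPKM (0.84 ± 0.15, adjusted p = 0.000168). mt-Ts1 (chrM:6870-6938, minus strand), for serine, had 8.33, 9.14 and 10.18 against 7.66, 8.34 and 9.22 log2 RPKM (0.80 ± 0.16, adjusted p = 0.00052). Thus mt-Tv and mt-Tl1, on both sides of mt-Rnr2, were higher in lumbar in 10 of 10 donors, and mt-Ts1 in 9.

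The other 10 called tRNAs were less abundant. mt-Td, for aspartate, had 5.95, 6.72 and 7.22 log2 RPKM in lumbar and 4.81, 5.32 and 6.15 in sacral libraries, 2.37-fold higher in lumbar in 10 of 10 donors (1.25 ± 0.17, adjusted p = 9.48e-06). mt-Tp, for proline, had 7.95, 8.55 and 8.93 against 7.18, 7.63 and 8.05 log2 RPKM (0.88 ± 0.12, adjusted p = 1.02e-05). These 2 lie far apart, between mt-Ts1 and mt-Co2 and at the end of the annotated genes. mt-Ty, for tyrosine, had 7.29, 8.02 and 8.31 against 6.71, 7.09 and 7.54 log2 RPKM (0.78 ± 0.13, adjusted p = 7.84e-05), and mt-Tg, for glycine, 5.47, 5.74 and 6.36 against 4.55, 4.98 and 6.02 log2 RPKM (0.65 ± 0.14, adjusted p = 0.000994). In both, all 10 donors were higher in lumbar. The log2 fold changes were 0.88 for mt-Tl2 (leucine, adjusted p = 0.0011), 0.67 for mt-Tr (arginine, 0.0201), 0.66 for mt-Te (glutamate, 0.00293), 0.66 for mt-Th (histidine, 0.0417), 0.62 for mt-Tm (methionine, 0.0121) and 0.56 for mt-Tt (threonine, 0.00335). The calls of mt-Th and mt-Tr did not hold in every fit that left out 1 donor: mt-Th lost its call in 5 of the 10 fits (male 2, 3 or 5, female 1 or 5), with an adjusted p of up to 0.128, and mt-Tr in 3 (male 2 or 3, female 5), with up to 0.0552. Over these fits the log2 fold change stayed between 0.49 and 0.80 for mt-Th and between 0.61 and 0.77 for mt-Tr. For mt-Tl2, mt-Tr and mt-Th 8 of 10 donors were higher in lumbar, and for mt-Te, mt-Tm and mt-Tt 9 of 10.

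The 8 tRNAs that did not pass the test had log2 fold changes between -0.02 and 0.64. With donor as a fixed effect in limma 32 of the 37 genes were called higher in lumbar and 0 higher in sacral (15.2% and 28.6% of all genes), the gains being mt-Ti (adjusted p = 0.0048), mt-Tq (0.0152) and mt-Tk (0.0466). The 4 adjoining genes mt-Tw, mt-Ta, mt-Tn and mt-Tc, printed above, were nearest to 0, and their signs changed with the scaling between libraries. mt-Tw had 4.13, 5.55 and 6.05 log2 RPKM in lumbar and 4.69, 5.43 and 5.85 in sacral libraries (0.00 ± 0.19, adjusted p = 0.995), and mt-Ta 4.12, 5.15 and 5.77 against 4.58, 5.15 and 5.61 (-0.02 ± 0.18, adjusted p = 0.934). mt-Tn had 4.39, 5.19 and 6.04 against 4.77, 5.12 and 5.56 log2 RPKM (0.04 ± 0.17, adjusted p = 0.853), and mt-Tc 5.65, 6.64 and 7.19 against 5.60, 6.30 and 6.89 (0.15 ± 0.19, adjusted p = 0.523). In these 4 genes the sacral values lay inside the lumbar range or nearly so. A p that misses the threshold does not show that the levels were equal. These 4 genes rested on 58 to 499 reads a library, while mt-Td, which was called, rested on 105 to 494. The others were mt-Ti (0.41, isoleucine, adjusted p = 0.065), which was higher in lumbar in 10 of 10 donors, mt-Tq (0.39, glutamine, 0.11), mt-Ts2 (0.50, serine, 0.102) and mt-Tk (0.64, lysine, 0.0649). mt-Tk had only 2 to 18 reads a library, and its donor differences ran from -1.61 to 2.01. It passed without male donor 5 (adjusted p = 0.00653), as did mt-Ti without male donor 1 (0.0337) and mt-Ts2 without female donor 2 (0.0261), all by limma.

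Reads on a tRNA gene are not a clean measure of the mature tRNA. The genes are 59 to 75 bases long and abut or overlap their neighbours, by up to 3 bases, so that a read can come from an uncut precursor. Only 9 to 67 stretches of 50 bases touch a given tRNA gene and no other gene, and with stretches of 100 bases 19 of the 22 have none. The read length was not stated, and how far this shaped the tRNA values was not tested. On the strand of mt-Nd6, 4 of 8 tRNAs were called higher in lumbar (median log2 fold change 0.52), and on the other strand 10 of 14 (median 0.65).

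Ratios within the mitochondrial genome do not depend on how libraries are scaled to each other. Of 5 pairs tested (two-sided exact permutation test by sign flips over the 10 donors, Benjamini-Hochberg adjusted over the 5), 1 differed between the levels. The log2 ratio of mt-Rnr2 to mt-Nd1 had a mean of 4.58 in lumbar and 4.46 in sacral libraries, a difference of 0.13 ± 0.09 (SD) that was positive in 10 of 10 donors. Its exact p was 0.00195, the smallest that 10 donors allow, and its adjusted p 0.00977. Without the pairing by donor the same difference had an adjusted p of 0.113. The difference is small beside the log2 fold changes of both genes, 1.09 and 0.97.

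The other 4 ratios did not pass. For mt-Rnr1 to mt-Rnr2, the rRNAs of the small and large subunit, the difference was 0.09 ± 0.17 (exact adjusted p = 0.173), positive in 5 of 10 donors, and without female donor 5 it was 0.043. For mt-Co1 to mt-Cytb it was 0.09 ± 0.13 (exact adjusted p = 0.151), and without female donor 2 it was 0.12 and passed (exact adjusted p = 0.0293). For mt-Nd6, on the minus strand, the ratio to mt-Cytb differed by -0.10 ± 0.19 (exact adjusted p = 0.173; -0.060 without male donor 4) and that to mt-Nd5 by 0.00 ± 0.12 (exact adjusted p = 0.895).

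Donors varied more than these ratios did. The mean difference over the 13 mRNAs was 1.03 ± 0.41 log2 units (SD, n = 10 donors), from 0.39 to 1.60, and over the 2 rRNAs 1.13 ± 0.42. Over the 22 tRNAs it was 0.62 ± 0.39 and positive in 9 of 10 donors. Female donor 1 had the largest difference in 23 of the 37 genes, and the smallest fell to male donor 1 in 14 genes and to female donor 4 in 13. The donor differences of the other mRNAs followed those of mt-Co1, with Pearson r from 0.56 (mt-Nd3) to 0.98 (mt-Nd4) over the 10 donors, which is a description since the points share libraries and scaling. The gene least like mt-Co1 was mt-Tk, with r of 0.02.

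The mean of the glial markers was also higher in lumbar in every donor, by 0.92 ± 0.24 log2 units, from 0.55 to 1.41. With that mean as a covariate in limma, 0 of the 37 genes were called higher in lumbar, against 0.0675% of all genes. Called lower were 3, against 0.711% of all genes (mt-Tq at -0.92, mt-Tm at -0.69 and mt-Tc at -0.97 log2 units). An unadjusted p below the threshold was found in 13 of the 37 and in 1757 of 16304 genes over the whole table. The median log2 fold change of the 37 was 0.06. Calls were lost across the whole table in this fit, from 7436 to 127 of 16304 genes, so the loss was not particular to the mitochondrial genes. Since the covariate itself was higher in lumbar in every donor, the contribution of glial RNA and of the level itself to the mitochondrial genes cannot be told apart in these libraries.

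**Figure D4:**
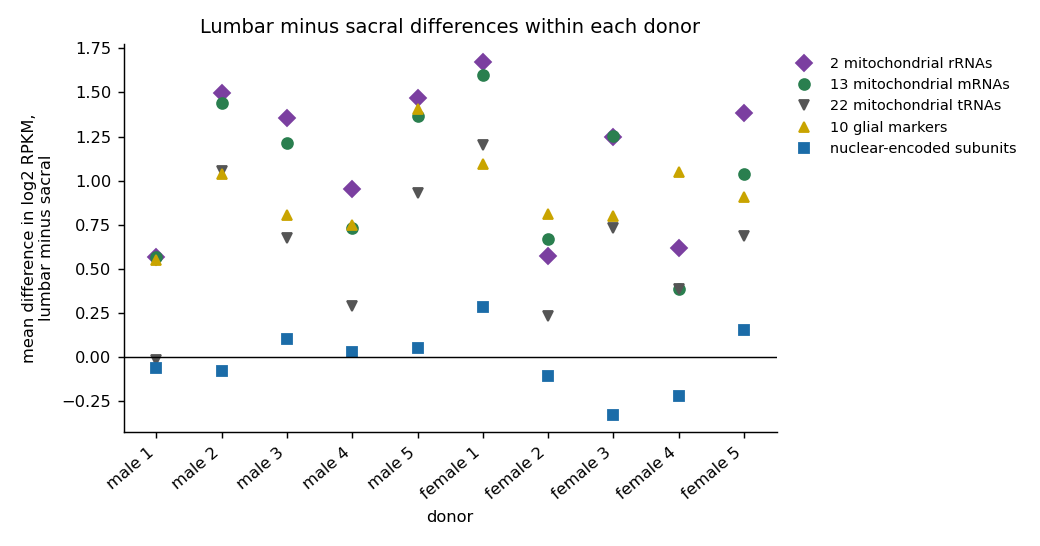
Mean difference in log2 RPKM (y axis, lumbar minus sacral) within each donor (x axis) for the mitochondrial rRNAs, mRNAs and tRNAs, the 10 glial markers and the 76 tested nuclear-encoded subunits of complexes I to V. The rRNAs, mRNAs and glial markers lie above 0 in all 10 donors and the nuclear-encoded subunits lie on both sides of 0.

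No mitochondrial gene passed the test between the sexes. Between female and male donors 0 of the 37 genes were called by limma in lumbar libraries (0.0427% of all genes were called) and 0 in sacral libraries (0.0368%). At an unadjusted p below the threshold were 1 and 0 of 37, against 1864 of 16386 and 1320 of 16321 genes over the whole table. The gene with the lowest p in lumbar libraries was mt-Ts1, lower in females by a log2 fold change of -0.77 (limma adjusted p = 0.33), and in sacral libraries mt-Th at -0.81 (limma adjusted p = 0.624). For the interaction of sex and level 0 of 37 genes were called, as were 0.0% of all genes. None of the 37 had an unadjusted p below the threshold, against 668 of 16304 genes over the whole table. The log2 fold changes between levels were 1.21 in males and 1.19 in females for mt-Co1, 1.10 and 1.12 for mt-Cytb and 1.20 and 1.15 for mt-Rnr1. They were farthest apart for mt-Tk, at 0.10 in males and 1.17 in females, on the lowest reads of all 37 genes. That gap of 1.07 was 0.64 without male donor 5, whose lumbar library had 2 reads of mt-Tk.

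Several mitochondrial genes have near-identical copies in the nuclear genome, and the paper states that only uniquely mapping reads were kept. The longest copy lies at chr1:24618374-24623027 (minus strand), where 4654 aligned bases match chrM:6390-11042 at 99.936% identity and hold 11 mitochondrial genes in full, from mt-Ts1 to mt-Nd4l. It differs from chrM by only 2 substitutions, A6393T and T9461C (the chrM base, its position from the start of chrM, then the base of the nuclear copy), and by 1 inserted base in mt-Tr. The difference in mt-Nd3 is shown in capitals in 51 bases, since it is the only substitution by which a read of mt-Nd3 could be told from the copy.
mt-Nd3 start (chrM:9436-9486, plus strand): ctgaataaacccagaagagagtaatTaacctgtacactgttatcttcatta
nuclear copy (chromosome 1, minus strand): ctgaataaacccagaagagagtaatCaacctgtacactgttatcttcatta

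The mRNAs wholly inside this copy had lower levels than those partly inside or outside it. For mt-Co2, mt-Atp8, mt-Atp6, mt-Co3, mt-Nd3 and mt-Nd4l at least 98.997% of 50-base stretches had an identical nuclear copy, and their mean levels were 6.31 to 9.25 log2 RPKM (median 8.09). The 5 mRNAs with at most 8.29% of such stretches (mt-Nd1, mt-Nd2, mt-Nd5, mt-Nd6 and mt-Cytb) had 10.5 to 12.8 log2 RPKM (median 11.4). Levels did not fall steadily with copying, since mt-Co1 (51.1% copied) had a mean of 13.6 and mt-Nd4 (62.2%) of 11.7 log2 RPKM. Every stretch of 50, 75 or 100 bases in mt-Atp6 had an identical nuclear copy, yet it held 6596 to 25189 reads a library. Reads of those lengths inside it had no unique position in the build. Levels of the 6 copied mRNAs are thus uncertain, and how reads that map to both places were handled was not tested. The same limit holds for the tRNAs mt-Tw, mt-Tn, mt-Ty, mt-Ts1, mt-Td, mt-Tk, mt-Tg, mt-Th and mt-Te. Every 50-base stretch inside these tRNA genes had an identical nuclear copy. The difference between lumbar and sacral libraries in the 6 copied mRNAs was close to that of the others. Their median log2 fold change was 1.10 (0.44 to 1.14), and that of the 5 others 1.01 (0.97 to 1.11).

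**Figure D5:**
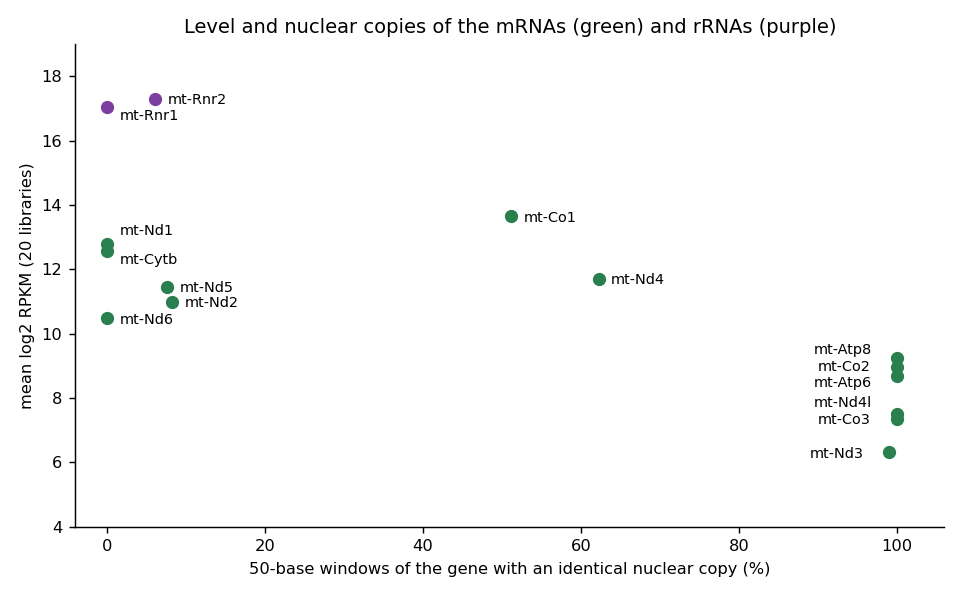
Mean level (y axis, log2 RPKM over 20 libraries) of the 13 mRNAs and 2 rRNAs against the share of 50-base stretches of the gene with an identical copy in the nuclear genome (x axis, %). The 6 mRNAs near 100% lie between 6.31 and 9.25, below the 5 mRNAs at most 8.29% copied. The partly copied mt-Co1 and mt-Nd4 lie at 13.6 and 11.7.

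Reads were also assigned to nuclear genes annotated within such copies. Gm10925, a gene in the chromosome 1 copy that matches mt-Atp6, had a mean of 9.58 log2 RPKM in lumbar and 8.45 in sacral libraries (1.14, adjusted p = 3.91e-06 by limma). It stood 0.33 ± 0.03 log2 units (SD, 20 libraries) above mt-Atp6 in every library. Gm10222, which matches mt-Nd4l, had 8.52 and 7.45 log2 RPKM and stood 0.50 ± 0.07 above it. The constant gaps show that these nuclear entries moved with their mitochondrial counterparts, and reads of either origin could not be told apart in the table.

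For nuclear genes that serve the mitochondrial genome, both the counts and the direction in which most calls fell depended on the scaling. Of 221 tested genes in 9 lists, 16 were called higher in lumbar and 33 higher in sacral libraries with the deposited scaling. Both shares were below the 15.3% and 30.3% called over all genes. The median log2 fold change of the 221 was -0.06, against -0.11 over all tested genes. Scaling to reads outside the mitochondrial genome gave 75 higher in lumbar and 8 higher in sacral, TMM factors 39 and 17, quantile normalization 54 and 21, and scaling to all reads on genes 0 and 148. The median log2 fold change of these nuclear genes was 0.17, 0.05, 0.07 and -0.38 in those scalings. That of all tested genes was 0.14, 0.00, -0.06 and -0.44, so the direction of a nuclear gene with a small change is relative to that choice. Over all genes 27.8%, 21.4%, 19.3% and 7.83% were called higher in lumbar in those scalings, and 13%, 22.3%, 25.4% and 60.3% higher in sacral. None of the nuclear genes named below changed sign under them, but calls were lost. Polg2, Mterf3, Mrpl1, Ndufa7 and Atp5f1e lost theirs when scaled to all reads on genes, and Grsf1, Tsfm, Mrps27, Cox6a1 and Atp5f1b when scaled to reads outside the mitochondrial genome. Cox6a1 also lost its call with TMM factors and, like Grsf1, under quantile normalization. Under the same 4 scalings 32, 31, 29 and 24 of the 37 mitochondrial genes were called higher in lumbar and 0 higher in sacral libraries.

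Of the genes that maintain and transcribe mitochondrial DNA, 3 of 14 tested were higher in lumbar and 0 higher in sacral (15.3% and 30.3% of all genes). Polg2, the accessory subunit of the mitochondrial DNA polymerase, had a log2 fold change of 0.85 ± 0.28 (adjusted p = 0.0177), and Mterf3, a regulator of mitochondrial transcription, 0.41 ± 0.13 (adjusted p = 0.0169). Of 29 genes that process mitochondrial RNA, 1 was higher in lumbar and 4 higher in sacral. Lrpprc, which stabilizes mitochondrial mRNAs, was 1.95 ± 0.37 log2 RPKM in lumbar and 2.82 ± 0.20 in sacral libraries (SD, n = 10), a fold change in the opposite direction to the mRNAs (-0.86 ± 0.11, adjusted p = 9.19e-06). Grsf1, a protein of the mitochondrial RNA granules, had -0.33 ± 0.08 (adjusted p = 0.00153).

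Of 25 translation factors and tRNA synthetases 0 were higher in lumbar and 4 higher in sacral. Among these 4 were the elongation factors Gfm1 (-0.49) and Tsfm (-0.50) and the isoleucine tRNA synthetase Iars2 (-0.43). Of 77 mitochondrial ribosomal proteins 4 were higher in lumbar and 10 higher in sacral, with Mrpl1 at 0.41 and Mrps27 at -0.41. The median log2 fold change of the ribosomal proteins was 0.00, while the rRNAs they bind were at 1.09 and 1.18. In both lists the shares called were below those of all genes, 15.3% higher in lumbar and 30.3% higher in sacral.

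Of 76 nuclear-encoded subunits of complexes I to V, 8 were higher in lumbar and 15 higher in sacral, with a median of -0.01. Both shares were below those of all genes, 15.3% and 30.3%. In complex I the counts were 4 and 7 of 36, with Ndufv1, which binds NADH, at -0.56 ± 0.08 (adjusted p = 2.39e-05), Ndufs1 at -0.45 and Ndufa7 at 0.41. In complex II, all of which is nuclear-encoded, 0 and 2 of 4 were called, Sdha at -0.45 ± 0.07 (adjusted p = 5.9e-05). Complex III had 0 and 1 of 9 and complex IV 2 and 2 of 13, where Cox6a1 was at -0.28. In complex V, with 2 and 3 of 14, the subunits Atp5f1a (-0.59 ± 0.08, adjusted p = 1.27e-05) and Atp5f1b (-0.35) were higher in sacral libraries and Atp5f1e (0.55) in lumbar libraries. Within donors the mean difference over all these subunits was -0.02 ± 0.18 log2 units, positive in 5 of 10 donors. With the glial covariate limma called 0 of the 221 nuclear genes in either direction, where 127 of 16304 genes were called over the whole table. At an unadjusted p below the threshold were 12 of the 221, against 1757 of the 16304.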

How the data were processed

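RNA of sorted Trpv1 neurons was amplified, sequenced and counted per gene by the authors. The paper states that reads were aligned with Subread to mouse build mm9, that uniquely mapping ones were retained and that featureCounts counted them on Ensembl genes. The deposited table holds log2 RPKM that the authors scaled with TMM factors and voom, 1 column per library. No column was left unused. Empty cells were treated as missing. The steps between low values of a column gave back whole reads (within 0.01 reads) for 98.1% of values and for all 740 mitochondrial values, with 43906566 to 66407317 reads on genes a library, which set the shares.

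The levels and sexes were compared with limma 3.58.1 in R 4.3.3, with 4 group means, donor as random block and Benjamini-Hochberg adjusted p of at most 0.05 over all genes tested. The study likewise used limma with donor blocking and this threshold, but gave raw counts to voom and filtered on counts per library size. Here the deposited log2 RPKM were fitted with a mean-variance trend, on genes with a mean log2 RPKM above -1 in at least 1 group. The script was tested on simulated data. Donor labels pair the libraries, and the deviations of a donor's libraries from their group means correlated at 0.04 to 0.30. Alternatives covered the filter, pseudocount, scaling (among them voom on the worked-back reads, with 7022 genes called between levels), weights, block, donor as fixed effect, a glial covariate and left-out donors. Of the worked-back reads voom was the only count-type test run.

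Genes were placed on NCBIM37 by identifier, and nuclear copies were searched with BLAST 2.17.0. The members and gene lists were chosen with earlier results of these data known. All 37 genes were accounted for, with mRNAs and rRNAs described one by one, and of the tRNAs those called and the 4 with the highest mean. From each nuclear list came up to 4 called genes with the largest change and 1 direction in all 10 donors, of which some are printed.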

Additional observations from a re-analysis of the deposited data

Results flagged for a closer look

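In 124 groups of 10 libraries or donors, the gap of the highest or lowest value to its neighbour was set against the range, and 4 groups had a value far from the rest. Chance gives about 1 in 20 such groups. The sacral library of female donor 4 had 7.82 log2 RPKM of mt-Co3, above the next highest sacral library at 7.18. In the lumbar library of female donor 3, rRNAs made up 86.9% and mRNAs 12.8% of the mitochondrial reads, the lowest and the highest share of the lumbar libraries, with the nearest others at 88.1% and 11.5%. For the log2 ratio of mt-Rnr1 to mt-Rnr2, the lumbar minus sacral difference of female donor 5 was 0.48, and the next highest 0.22.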

How the results depend on the processing

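The count of mitochondrial genes called higher in lumbar, 29, ranged from 22 (females only) and 23 (males only) to 33 (array quality weights), and from 27 to 30 with a donor left out. Over all genes these fits called 1152 of 15702, 1669 of 15978 and 2885 of 16304 higher in lumbar. With a donor left out they called 2172 (without male donor 2) to 2565 (without male donor 1). The exception for the mitochondrial genes was the glial marker mean as covariate, with 0 called higher in lumbar and 3 called lower (13 at an unadjusted p below the threshold) and a median log2 fold change of 0.056. Over all 16304 genes that fit called 11 higher and 116 lower in lumbar, with 1757 at an unadjusted p below the threshold. In limma without the donor block the mitochondrial count was 28 (2154 of 16304 over all genes), and with donor as a fixed effect 32 (2482 of 16369). The mt-Rnr2 to mt-Nd1 ratio, 0.13, had an adjusted p of 0.113 without the pairing by donor and of 0.00977 with it.

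Among the mRNAs and rRNAs, beyond the glial covariate, calls were lost by mt-Rnr1 and mt-Rnr2 without the filter, under quantile normalization and in females only, by mt-Rnr2 when scaled to reads outside the mitochondrial genome, by mt-Nd3 when scaled to all reads on genes and in females only, and by mt-Nd5 under quantile normalization. No mRNA or rRNA lost its call when a donor was left out. For sex and its interaction with level, 0 genes were called by limma or voom in each alternative, with at most 10 of the 37 at an unadjusted p below the threshold. These 10 were found between the sexes in lumbar libraries with the glial covariate, where 1165 of 16386 genes over the whole table were below it.

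With the glial covariate these log2 fold changes turned: mt-Ti -0.73, mt-Tq -0.92, mt-Tm -0.69, mt-Tw -0.97, mt-Tn -0.85, mt-Tc -0.97, mt-Tk -0.39, mt-Tg -0.020, mt-Nd3 -0.10, mt-Tr -0.79, mt-Th -0.52, mt-Ts2 -0.67, mt-Tl2 -0.21, mt-Te -0.35, Polg2 -0.14, Mterf3 -0.057, Tsfm 0.36 and Ndufs1 0.069. Scaled to all reads on genes, mt-Tw was -0.32, mt-Tn -0.28 and mt-Tc -0.17. mt-Ta was 0.19 under quantile normalization, 0.090 with TMM factors, 0.20 scaled to reads outside the mitochondrial genome, 0.050 with voom, 0.071 with array weights and 0.13 in males only. In females only mt-Tw was -0.14, and in males only mt-Tn was -0.012. With a donor left out mt-Tw ranged from -0.095 to 0.15, mt-Ta from -0.13 to 0.10, mt-Tn from -0.071 to 0.11, mt-Tc from -0.0058 to 0.22, the mt-Co1 to mt-Cytb ratio from 0.076 to 0.12, the mt-Nd6 to mt-Nd5 ratio from -0.021 to 0.024, the mt-Rnr1 to mt-Rnr2 ratio from 0.043 to 0.10 and the mt-Nd6 to mt-Cytb ratio from -0.13 to -0.060. The causes were not tested.

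The nuclear genes called in either direction, 49, became 75 under quantile normalization, 148 scaled to all reads on genes, 83 scaled to reads outside the mitochondrial genome and 0 with the glial covariate. With that covariate 12 of them had an unadjusted p below the threshold, against 1757 of 16304 genes over the whole table. With rRNAs left out of both sums the difference in mitochondrial share was 6.43 percentage points. The shares themselves were then lower, from 6.35% to 14.8% in lumbar and from 3.16% to 7.50% in sacral libraries. This difference is therefore not on the scale of the one with rRNAs. Reads were fewest for mt-Tk, at 2 to 18 a library; whether depth set which tRNAs were called was not tested.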
